A study of Mus musculus with 8 samples.

Results

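The transcription factors that hold mouse embryonic stem cells in the pluripotent state were followed through a block of transcription: Nanog, Pou5f1, Sox2, Esrrb, Tfcp2l1, Prdm14, Tbx3, Nr0b1, Zfp42 and Sall4. They were chosen by name, and all probes assigned to them were used, which gave 14 probes for 10 of the 20972 gene symbols on the array. Sall4 had 3 probes, Nanog and Tfcp2l1 had 2 each, and the other 7 genes had 1. All cultures, the untreated ones included, grew with the self-renewal cytokine LIF and with 250 nM PD173074, which inhibits FGF receptors. The transcription blocker actinomycin D (5 µM) was given alone for 30 min to 3 cultures, and 250 nM 4-hydroxytamoxifen (4OHT) was then added for 4 h. In 2 cultures the same actinomycin D step was followed by 4 h of ethanol vehicle. In 3 cultures the cells had no treatment according to their description and treatment label, although the titles of these samples also carry an abbreviation of actinomycin D. The titles also give 0 h, so actinomycin D, time in culture and ethanol cannot be told apart between vehicle and untreated cultures. The design text gives 3 biological replicates per condition, and 2 vehicle arrays were analysed here. The labels name neither the cell line nor the protein on which 4OHT acts, and the study as titled is about the control of mRNA decay by Erk, a kinase downstream of FGF receptors. Cells of this type express all 10 genes, and all 14 probes were well above background on all 8 arrays.

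OCT4, the product of Pou5f1, and SOX2 bind side by side on composite DNA elements at many genes of the pluripotent state, their own included, and NANOG binds at many of the same places. A wider circle of factors, among them ESRRB, TFCP2L1, TBX3 and PRDM14, keeps this core active in the naive state that LIF and low ERK signalling favour. The abundance of each mRNA reflects both its synthesis and its decay, and once transcription is blocked the loss of an mRNA follows its decay.

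Levels below are log2 processed signals minus the 75th percentile of the same array, so they describe an mRNA relative to the other transcripts on its array, and levels of different probes are not compared. That percentile was itself lower after actinomycin D, with signals of 160 to 184 for 4OHT and 148 to 182 for vehicle, against 293 to 406 for untreated cells. The main differences are therefore also given on a second scale, relative to 8 spike-in control probes. There the percentile stood at −5.44 to −4.97 with 4OHT, at −5.01 to −4.89 with vehicle and at −3.73 to −3.58 without treatment. The spike-in scale has an error of its own: from probe to probe the spike-in difference ranged over 0.11 to 0.80 for 4OHT against untreated, −0.07 to 0.54 for 4OHT against vehicle and −0.04 to 0.32 for vehicle against untreated. The labelling input was a set mass of total RNA (100 ng, per the labels), so the spike-in scale reads labelled signal per mass of total RNA. Neither cell number nor RNA per cell can be read from it. All 4OHT arrays lay on 1 slide and all vehicle and untreated arrays on another, so slide and 4OHT cannot be told apart. On the second slide vehicle and untreated arrays occupied different rows, and the effects of row and of treatment cannot be told apart there.

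The arrays of 4OHT replicate 1, vehicle replicate 1 and untreated replicate 2 stood apart from the others of their groups. Krt18, a simple-epithelium keratin in the list of trophoblast markers, had levels of 5.60, 3.65 and 3.69 on the 4OHT arrays, 5.57 and 3.45 with vehicle and 3.20, 4.87 and 2.97 in untreated cells. Acta2, smooth muscle actin and a marker of the feeder fibroblast list, had levels of 1.1, −2.63 and −2.52 with 4OHT, 1.11 and −2.48 with vehicle and −2.82, 0.25 and −2.95 untreated. Both genes were far higher on these 3 arrays than on the other 5, and they were picked after their values were seen. Of the marker lists, 4 of 10 trophoblast, 2 of 10 feeder fibroblast, 1 of 10 mesendoderm and neuroectoderm and 0 of 10 primitive endoderm genes were highest in their group on all 3 of these arrays. Summed trophoblast signal ranged over 2646 to 9554 with 4OHT, 2768 to 7475 with vehicle and 5408 to 14576 untreated. Without Krt18 the sums were 604 to 689, 443 to 780 and 2684 to 3450 in the same groups. Summed feeder signal ranged over 777 to 1241, 820 to 877 and 937 to 1792 in the same groups. Without Thy1 the feeder sums were 529, 167 and 183 on the 4OHT arrays, 429 and 194 with vehicle and 231, 748 and 279 untreated. The highest feeder sum of each group then lay on 1 of the 3 arrays that stood apart. Acta2, picked above for its high values on these arrays, was part of these sums, and sums without it were not taken. The order of the sums is therefore not a result about the whole feeder list. Summed primitive endoderm signal ranged over 6521 to 7803 with 4OHT, 6027 to 6621 with vehicle and 8714 to 10060 untreated, and that of mesendoderm and neuroectoderm over 513 to 746, 568 to 640 and 935 to 1271. Most of the primitive endoderm sum was Lamb1, and without it the ranges were 76.1 to 102, 73.7 to 106 and 303 to 447. Without Nes those of mesendoderm and neuroectoderm were 111 to 153, 124 to 148 and 480 to 526. All these sums are processed signals that were not scaled to the array's percentile. Of the primitive endoderm markers Gata4, Dab2, Cubn and Lamb1 were well above background on all 8 arrays, and the other 6, Gata6 and Sox17 among them, on the untreated arrays alone. Of the trophoblast markers Eomes, Gata3, Ascl2, Tfap2c and Krt18 were above it on all 8 arrays and Elf5 on none, and of the feeder markers Col1a1, Col1a2, Thy1, Pdgfrb and Acta2 were above it on all 8 and Postn and Lum on none. Of all probes tested, 12.8% were highest and 18.2% lowest in their group on all 3 of these arrays. Untreated replicate 2 also held 466 non-uniform spots.

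The comparison of vehicle with untreated shows how the factors fared over the actinomycin D period without 4OHT. Relative to the 75th percentile Sox2 and Tbx3 were lost to a large extent, Zfp42 and Prdm14 to a lesser extent, and Pou5f1 was higher, although it was lower on the spike-in scale. Esrrb (0.29), Nr0b1 (0.41) and the brightest Sall4 probe (0.33) were called higher relative to the 75th percentile but lay close to the all-probe median, and they too were lower on the spike-in scale. Of the 14 probes, 7 were higher and 4 lower with vehicle at a limma adjusted p under 0.05, and 3 were not called. Among all 33013 probes tested 57.7% were called, 41.5% higher and 16.1% lower. The median difference was 0.37 for the 14 probes and 0.39 for all probes, so the median of the factors lay at that of the array. On the spike-in scale 0 of the 14 probes were higher and 10 were lower, against 0.0969% higher and 66.2% lower among all probes, and the medians were −0.91 for the factors and −0.89 for all probes. When the 3 arrays that stood apart were left out, a lone vehicle array remained. Esrrb then differed by 0.20, Nr0b1 by 0.28 and the brightest Sall4 probe by 0.27, each less than with all arrays. The Tfcp2l1 probes differed by 1.03 and 1.31. Both were lowest in their group on each array left out, so leaving these out narrowed their spread.

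**Figure D1:**
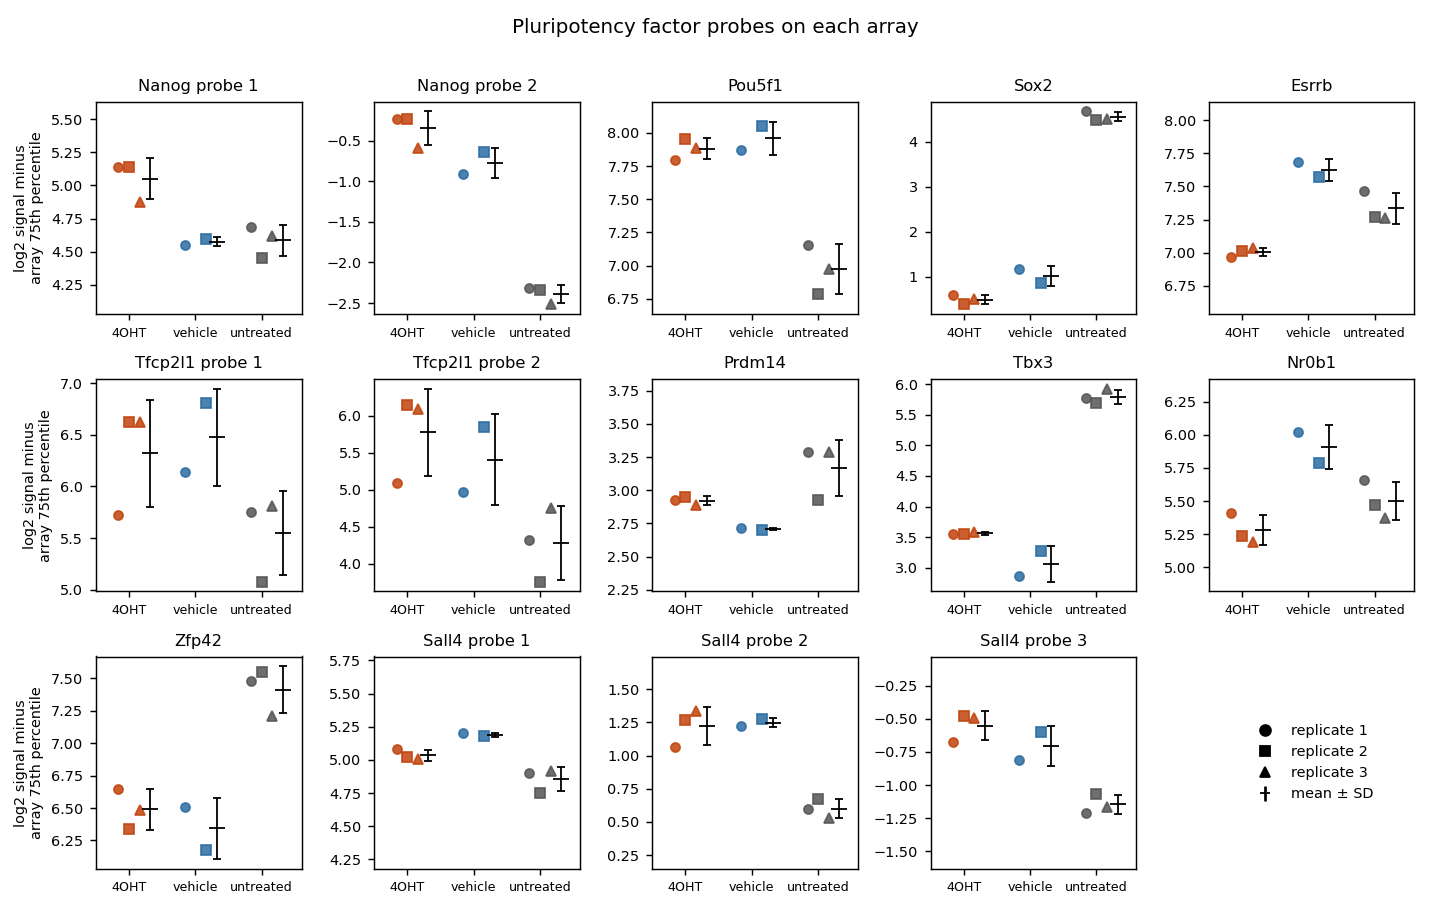
Level of each of the 14 probes on every array, as log2 signal minus the array's 75th percentile (vertical axes differ between panels), with points for arrays and a bar for the group mean ± SD (3 4OHT, 2 vehicle and 3 untreated arrays). Sox2, Tbx3 and Zfp42 sit lower on all 5 actinomycin D arrays than on the untreated ones, Pou5f1 sits higher, and the brighter Nanog probe is highest with 4OHT.

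Pou5f1, which encodes OCT4, the POU factor without which pluripotency is lost, had levels of 7.80, 7.96 and 7.89 on the 4OHT arrays, 7.87 and 8.05 with vehicle and 7.16, 6.78 and 6.97 in untreated cells. All 5 actinomycin D arrays lay above all untreated arrays, and the 4OHT and vehicle arrays overlapped. Relative to the 75th percentile Pou5f1 was higher with vehicle than untreated by 0.99 ± 0.13 (standard error, as for all differences below; limma adjusted p = 0.000889), but it was lower by spike-in scaling (−0.29 ± 0.22, adjusted p = 0.254) and without scaling (−0.10), and the call was also lost by quantile normalization (0.07, adjusted p = 0.640) and cyclic loess (0.05, 0.717). In percent of the untreated level that spike-in value is 81.8%. A near-identical copy, the pseudogene Pou5f1-rs4, has a probe of its own, which differed between vehicle and untreated by 1.04 ± 0.14 (adjusted p = 0.000928), between 4OHT and vehicle by −0.15 and between 4OHT and untreated by 0.89. The 2 probes could each detect the other's transcript, so which locus gave the signal is uncertain.

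Sox2, which encodes the HMG-box partner of OCT4 on DNA, moved the other way. Its levels were 0.60, 0.39 and 0.50 on the 4OHT arrays, 1.17 and 0.86 with vehicle and 4.68, 4.50 and 4.51 in untreated cells. The 3 groups did not overlap, and the untreated arrays were far above the rest. With vehicle Sox2 was at 8.55% of its untreated level relative to the percentile (−3.55 ± 0.13, adjusted p = 9.3e-06) and at 3.52% on the spike-in scale (−4.83 ± 0.23). Only 0.651% of all probes had a lower difference. Relative to the percentile the genes of these partner proteins differed in opposite directions in the same cultures, with Pou5f1 higher there but lower, short of the threshold, on the spike-in scale.

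Nanog, which encodes the homeobox factor that stabilises self-renewal, was read differently by its 2 probes. The brighter one had levels of 5.14, 5.14 and 4.87 on the 4OHT arrays, 4.55 and 4.60 with vehicle and 4.68, 4.46 and 4.62 in untreated cells. Vehicle and untreated arrays overlapped there, with a difference of −0.01 ± 0.12 (adjusted p = 0.949; 95% interval −0.31 to 0.28), and the 4OHT arrays lay above both. The dimmer probe had levels of −0.23, −0.23 and −0.59 with 4OHT, −0.91 and −0.64 with vehicle and −2.31, −2.33 and −2.52 untreated. On it the 5 actinomycin D arrays were well above the untreated ones, and vehicle exceeded untreated by 1.61 ± 0.16 (adjusted p = 0.000289). Scaled to the spike-ins, the brighter probe fell by 1.29 ± 0.25 (adjusted p = 0.0016) and the dimmer one differed by 0.33 ± 0.26 (adjusted p = 0.264).

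The disagreement between the Nanog probes was tested as the difference of their levels on each array, in a limma fit over all 5435 pairs of probes that share a symbol. The brighter minus the dimmer probe was lower with vehicle than untreated (−1.62 ± 0.13 on the log2 scale, adjusted p = 0.000578), where 15.7% of all pairs were called. It was also lower with 4OHT than untreated (−1.57 ± 0.11, adjusted p = 0.000275; 25.8% of pairs called), and it differed by 0.05 ± 0.13 between 4OHT and vehicle (adjusted p = 0.893; 0.552% of pairs called). A within-array difference does not depend on the scaling factor of the array, and without the 3 arrays that stood apart the vehicle value was −1.83 (adjusted p = 0.0124). The processed signal of the dimmer probe was 107 to 157 with 4OHT, 78.6 and 117 with vehicle and 59.1 to 80.6 untreated, and that of the brighter probe was 4723 to 6500, 3466 and 4415, and 7528 to 8907 in the same groups. Both probes carry the same RefSeq accession, and their sequences and positions were not used here. Nanog has pseudogenes in the reference, so the locus that each probe reads is uncertain.

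**Figure D2:**
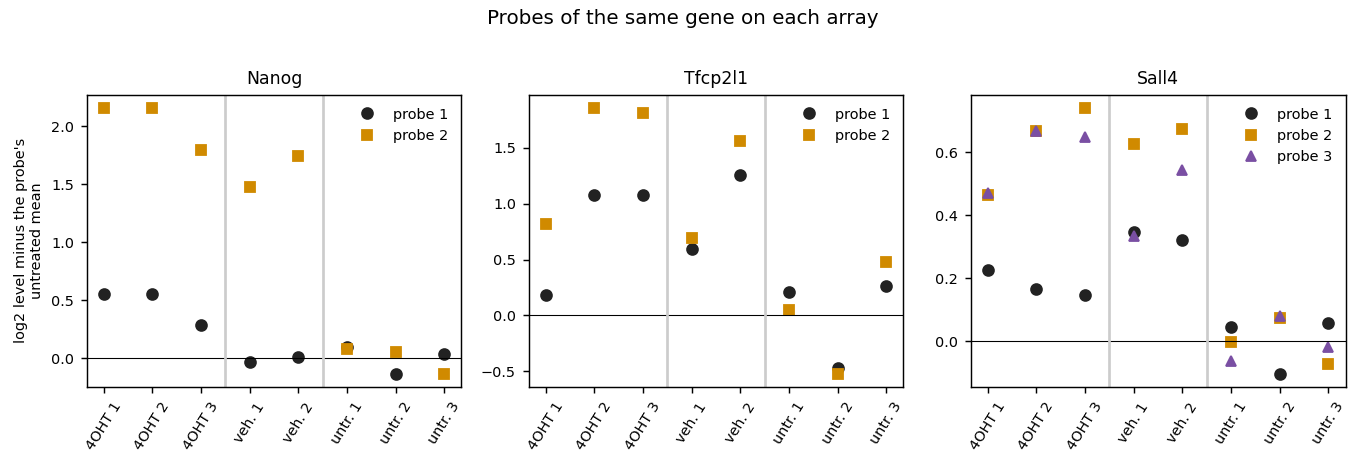
Level of each probe of Nanog, Tfcp2l1 and Sall4 on every array, as log2 level minus the mean of the same probe on the untreated arrays, in the order 4OHT, vehicle, untreated. For Nanog the dimmer probe (probe 2) sits well above its untreated mean on all 5 actinomycin D arrays while the brighter one stays close to 0 with vehicle, and the probes of Tfcp2l1 move together from array to array.

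The Nanog promoter is printed because it holds the composite element that OCT4 and SOX2 bind together. RefSeq promoter windows, from 250 bases before to 50 bases after an annotated start on GRCm38.p6, were matched by symbol for 7 of the 10 genes (10 windows), and Prdm14, Tbx3 and Sall4 were not matched. The letters CATTGT and ATGCAAA, with 1 base of any kind between them, were searched on both strands and occurred in 2 of 32851 windows (0.0061%), and both belong to Nanog starts that overlap. The first is shown 5′ to 3′ on the plus strand at chr6:122707239-122707538, with the match, on the minus strand at bases −75 to −62 from the start, in capitals.
Nanog promoter: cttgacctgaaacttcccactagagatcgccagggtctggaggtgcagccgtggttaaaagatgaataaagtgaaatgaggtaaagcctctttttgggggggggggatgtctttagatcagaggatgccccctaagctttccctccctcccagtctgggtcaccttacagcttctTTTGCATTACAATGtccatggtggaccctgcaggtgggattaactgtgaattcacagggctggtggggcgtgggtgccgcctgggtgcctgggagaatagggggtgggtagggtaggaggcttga
Among the member windows the octamer ATGCAAAT was found in Zfp42 only (1.74% of all windows), the SOX core CATTGTT in 1 Pou5f1 window only (3.78%), and the TATA box TATAAA in Nr0b1 and Tfcp2l1 (13.6%). The ESRRB element TCAAGGTCA (0.423% of all windows) and the STAT letters TTCCNGGAA (1.15%) were in none of the 10 member windows. A match describes these letters in this window and no more. Other spellings of each element were not searched, so the shares count these letters and not all such elements.

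Zfp42, which encodes REX1, a zinc finger protein and a classic marker of the naive state, had levels of 6.65, 6.34 and 6.49 on the 4OHT arrays, 6.51 and 6.18 with vehicle and 7.48, 7.55 and 7.21 in untreated cells. All actinomycin D arrays were below all untreated arrays, and 4OHT and vehicle overlapped. With vehicle it was at 47.7% of untreated relative to the percentile (−1.07 ± 0.16, adjusted p = 0.00146) and at 19.6% on the spike-in scale (−2.35 ± 0.24). It was the only member probe that was highest in its group on all 3 of the arrays that stood apart, and without them it fell by 1.17 (adjusted p = 0.0129). Zfp42 has a pseudogene in the reference that could share its signal. Its promoter is shown because, of the windows matched, it alone carries an octamer and a KLF motif (GGGTGTGG, 3.56% of all windows), both on the strand opposite to the gene and both in capitals, at bases −186 to −179 and −75 to −68 from the start. It lies on the minus strand at chr8:43306960-43307259 (GRCm38.p6, RefSeq).
Zfp42 promoter: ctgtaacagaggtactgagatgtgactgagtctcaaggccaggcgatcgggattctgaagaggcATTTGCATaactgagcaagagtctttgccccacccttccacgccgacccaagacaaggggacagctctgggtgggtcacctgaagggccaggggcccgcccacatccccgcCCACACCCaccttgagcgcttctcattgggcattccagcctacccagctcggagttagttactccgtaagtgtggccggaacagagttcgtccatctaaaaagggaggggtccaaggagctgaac

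Tbx3, which encodes a T-box factor downstream of LIF that sustains Nanog expression, had levels of 3.55, 3.55 and 3.59 on the 4OHT arrays, 2.86 and 3.27 with vehicle and 5.77, 5.70 and 5.92 in untreated cells. The groups did not overlap, and the vehicle arrays were the lowest. With vehicle Tbx3 was at 15.1% of untreated relative to the percentile (−2.73 ± 0.14, adjusted p = 3.2e-05) and at 6.20% on the spike-in scale. Prdm14, which encodes a PR-domain zinc finger protein that restrains FGF signalling and DNA methylation, had levels of 2.93, 2.95 and 2.89 with 4OHT, 2.71 and 2.70 with vehicle and 3.29, 2.93 and 3.29 untreated. Its vehicle arrays were below its untreated arrays (−0.46 ± 0.13, adjusted p = 0.0205), and the interval ran from −0.77 to −0.15. That call was lost without untreated replicate 1 (adjusted p = 0.0553) or 3 (0.0612) and without vehicle replicate 1 (0.0710) or 2 (0.0797). Prdm14 was at 30.0% of untreated on the spike-in scale.

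Esrrb and Nr0b1 had similar profiles. Esrrb, which encodes an orphan nuclear receptor that can sustain self-renewal, had levels of 6.97, 7.01 and 7.03 on the 4OHT arrays, 7.68 and 7.57 with vehicle and 7.47, 7.27 and 7.26 in untreated cells. Nr0b1, which encodes DAX1, a nuclear receptor that lacks the usual DNA-binding domain and interacts with OCT4 and ESRRB, had levels of 5.41, 5.24 and 5.19 with 4OHT, 6.02 and 5.79 with vehicle and 5.66, 5.47 and 5.37 untreated. In both genes the vehicle arrays were the highest and did not overlap the untreated ones, and the 4OHT arrays were below the vehicle arrays. The excess of vehicle over untreated was 0.29 ± 0.10 for Esrrb (adjusted p = 0.045) and 0.41 ± 0.13 for Nr0b1 (adjusted p = 0.0347), and the median over all probes was 0.39. Both were lower with vehicle than untreated under quantile normalization, cyclic loess, no scaling and spike-in scaling (−0.99 ± 0.20 for Esrrb and −0.87 ± 0.24 for Nr0b1 on the last). The Esrrb call was lost without any of vehicle replicates 1 and 2 and untreated replicates 2 and 3 (adjusted p up to 0.187), and that of Nr0b1 without vehicle replicate 1 (0.184), untreated replicate 2 (0.0721) or 3 (0.0965).

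Sall4, which encodes a spalt-family zinc finger protein that binds OCT4 and recruits a histone deacetylase complex, was read by 3 probes. The brightest had levels of 5.08, 5.02 and 5.00 on the 4OHT arrays, 5.20 and 5.18 with vehicle and 4.90, 4.75 and 4.91 in untreated cells. The second had levels of 1.06, 1.27 and 1.34 with 4OHT, 1.23 and 1.27 with vehicle and 0.60, 0.67 and 0.53 untreated. The third had levels of −0.68, −0.48 and −0.50 with 4OHT, −0.81 and −0.60 with vehicle and −1.21, −1.07 and −1.16 untreated. On all 3 probes every actinomycin D array was above every untreated array. Vehicle exceeded untreated by 0.33 ± 0.09 (adjusted p = 0.0194), 0.65 ± 0.11 (0.00254) and 0.44 ± 0.12 (0.0147) relative to the percentile, but all 3 probes were lower on the spike-in scale (−0.95, −0.63 and −0.84) and without scaling, and the first was also lower by normexp, quantile normalization and cyclic loess. The call was lost for the first probe without vehicle replicate 1 or 2 (0.0747 and 0.0634) and for the third without vehicle replicate 2 (0.0927). The tests of the 3 probe pairs gave adjusted p of 0.166 to 0.664 for vehicle against untreated, but the first probe differed from the second (0.0059) and the third (0.00527) after normexp background correction, and likewise after quantile normalization (0.00711 and 0.0182).

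Tfcp2l1, which encodes a CP2-family factor induced by LIF through STAT3, varied most of the 10 genes among cultures of the same group. Its brighter probe had levels of 5.73, 6.62 and 6.62 on the 4OHT arrays, 6.14 and 6.81 with vehicle and 5.75, 5.08 and 5.81 in untreated cells. Its dimmer probe had levels of 5.10, 6.14 and 6.09 with 4OHT, 4.97 and 5.85 with vehicle and 4.33, 3.76 and 4.76 untreated. In each group the lowest array was one of the 3 that stood apart, on both probes. The standard deviation within groups was 0.47 and 0.56, larger than for 85.5% and 90.2% of all probes, whose median was 0.19. Vehicle exceeded untreated by 0.93 ± 0.37 (adjusted p = 0.067) and 1.13 ± 0.44 (adjusted p = 0.0632), which did not pass. Both passed with a trended prior (0.0359 and 0.0335) and with probes well above background on all arrays (0.0492 and 0.0461), the brighter one with normexp (0.77, adjusted p = 0.0255) and the dimmer one with median scaling (1.17, 0.0475). Without the 3 arrays, an alternative chosen after the data were seen, the differences were 1.03 and 1.31. That fit left 1 vehicle array, assumed to vary like the other groups, and removed the lowest Tfcp2l1 array of each group. On the spike-in scale with all arrays they were −0.35 and −0.15 (adjusted p = 0.343 and 0.724).

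The low Tfcp2l1 arrays were the arrays with high Krt18 and Acta2. Tfcp2l1 was lower on 4OHT replicate 1 than on the mean of the other 4OHT arrays by 0.90 (brighter probe) and 1.02 (dimmer probe), and on these arrays the share of spots well above background was 57.4%, 54.7% and 53.0%. On vehicle replicate 1 it was lower than on replicate 2 by 0.67 and 0.88, and the shares were 60.0% and 55.6%. On untreated replicate 2 it was lower than on the mean of the others by 0.70 and 0.78, and the shares were 67.3%, 75.7% and 61.0%. Pou5f1 and Tbx3 were also lowest on these 3 arrays, by smaller amounts. The part of these markers and of signal quality in the Tfcp2l1 values was not tested.

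**Figure D3:**
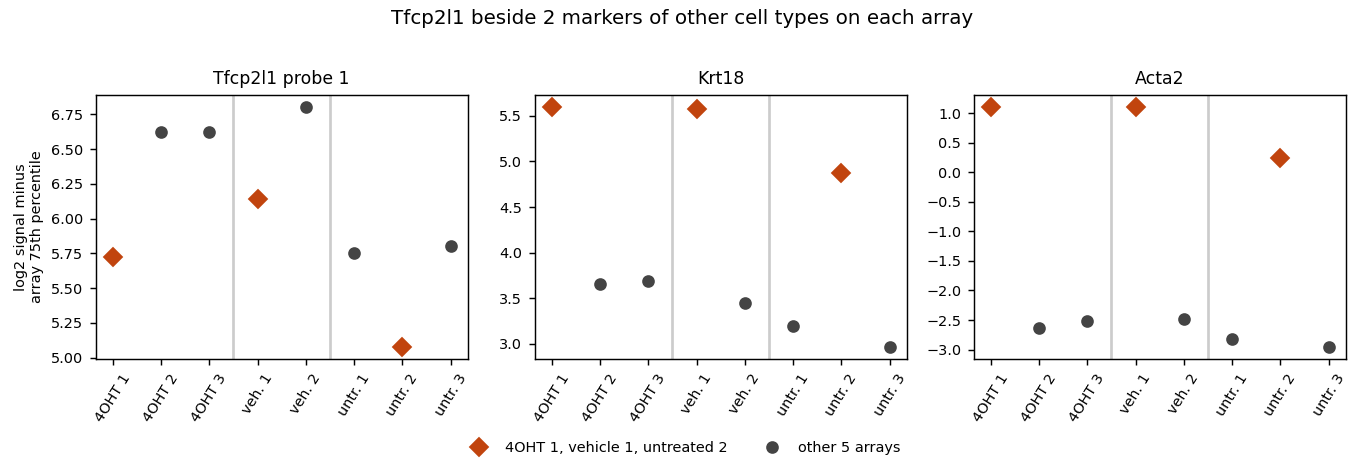
Level of the brighter Tfcp2l1 probe, of Krt18 and of Acta2 on every array, as log2 signal minus the array's 75th percentile (vertical axes differ between panels), in the order 4OHT, vehicle, untreated. On 4OHT replicate 1, vehicle replicate 1 and untreated replicate 2 (diamonds) Tfcp2l1 is the lowest of its group and Krt18 and Acta2 are the highest.

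The comparison of 4OHT with vehicle asks whether 4OHT altered what remained of each mRNA after the same actinomycin D exposure. Esrrb was the member called: its 3 4OHT arrays were all below its 2 vehicle arrays, at 65.0% of the vehicle level (−0.62 ± 0.10, limma adjusted p = 0.0298) and at 52.7% on the spike-in scale (−0.92 ± 0.20, adjusted p = 0.0404). Of the 14 probes 0 were higher and 1 was lower, where 3.33% of all probes were called, 0.933% higher and 2.4% lower. On the spike-in scale the counts were 0 higher and 1 lower, against 0.127% and 3.64% of all probes. The Esrrb difference stayed between −0.68 and −0.56 when any single array of either group was left out, but the call was lost each time (adjusted p = 0.0728 to 0.140). It was also lost without the filter on dim probes (0.122), without scaling (0.283), with scaling to the median (0.659) in a fit of these 2 groups alone (0.0874) and without the 3 arrays that stood apart (−0.54, adjusted p = 0.196), which left 0 of the 14 probes called in either direction.

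Nr0b1 differed by an amount close to that of Esrrb, at 64.7% of vehicle (−0.63 ± 0.13), and did not pass (adjusted p = 0.0572), although it passed with a trended prior (0.0175), with probes well above background on all arrays (0.0384) and with normexp (0.0267). Its spike-in difference was −0.93 ± 0.24 (adjusted p = 0.063). The 3 Nr0b1 4OHT arrays lay below both vehicle arrays. Sox2, already far lower with vehicle than untreated, differed by −0.52 ± 0.13 between 4OHT and vehicle (adjusted p = 0.0935; 95% interval −0.83 to −0.20). On the spike-in scale Sox2 differed by −0.82 ± 0.23 (adjusted p = 0.0825), and it passed with a trended prior (0.0442). Its 4OHT arrays, too, lay below both vehicle arrays.

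Nanog and Tbx3 differed in the other direction. Nanog was at 139% of vehicle with 4OHT on its brighter probe (0.47 ± 0.12, adjusted p = 0.0989) and at 134% on its dimmer probe (0.43 ± 0.16, adjusted p = 0.204), and on both probes every 4OHT array was above both vehicle arrays. Tbx3 was at 141% (0.50 ± 0.14, adjusted p = 0.118), again with no overlap. The share of all probes without overlap was not computed, so separation of such small groups, here and for the other members, is a description only. None of these 3 probes passed, and the brighter Nanog probe passed with a trended prior (0.0414) and with normexp (0.68, adjusted p = 0.017). The differences were smaller on the spike-in scale, at 0.17 and 0.12 for Nanog and 0.19 for Tbx3.

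No call was made for the other members. For Pou5f1 the difference between 4OHT and vehicle was −0.08, with a 95% interval of −0.40 to 0.24, and for Zfp42 it was 0.15, with an interval of −0.24 to 0.53. Prdm14 differed by 0.22 (−0.09 to 0.52). The Sall4 probes differed by −0.15 (−0.37 to 0.07), −0.03 (−0.29 to 0.24) and 0.16 (−0.12 to 0.43). For Tfcp2l1 the intervals were wide, from −1.03 to 0.73 on the brighter probe and from −0.68 to 1.41 on the dimmer one.

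**Figure D4:**
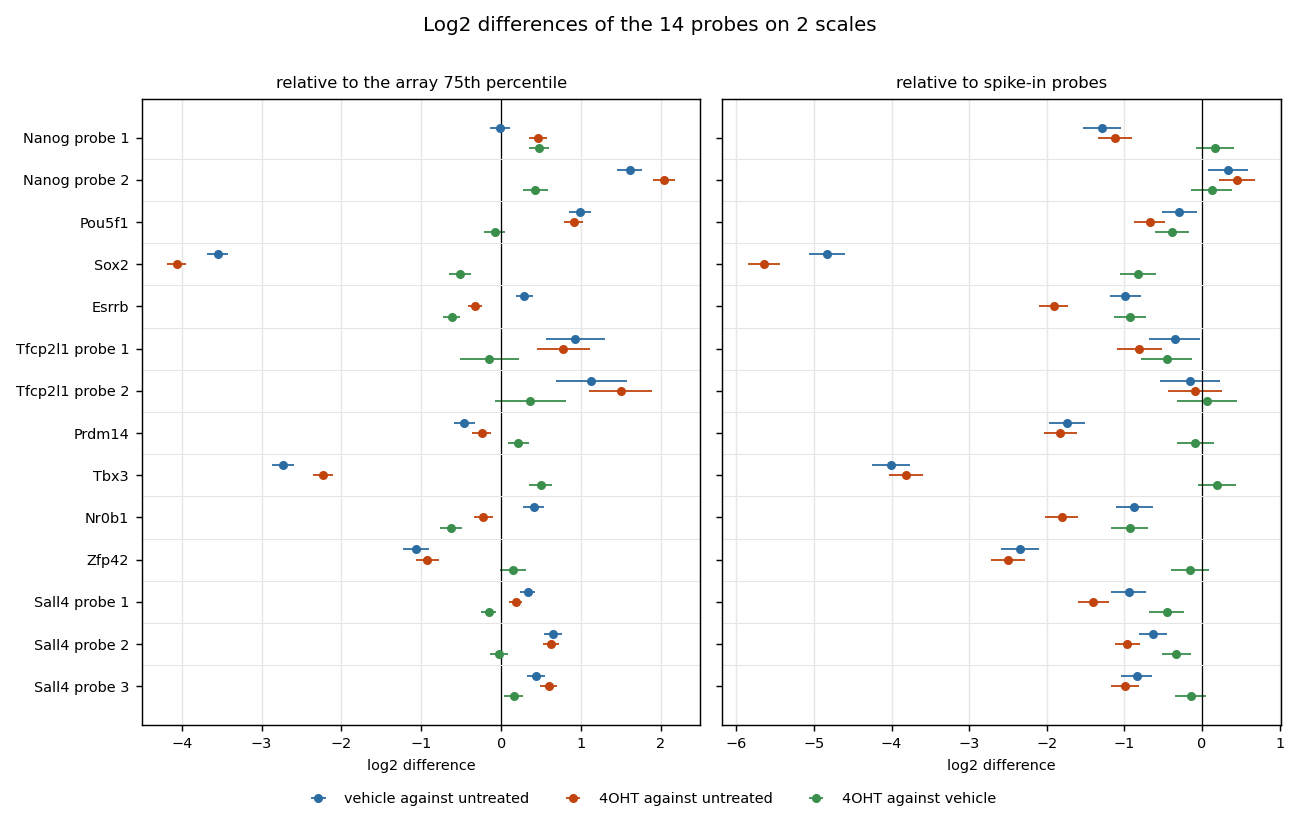
Log2 difference of each of the 14 probes for vehicle against untreated, 4OHT against untreated and 4OHT against vehicle, relative to the array 75th percentile (left) and to spike-in probes (right), with bars for the standard error. The comparisons share arrays. Sox2 and Tbx3 lie far to the left of 0 against untreated on both scales, and Esrrb and Nr0b1 lie near −0.6 for 4OHT against vehicle on the left.

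Against untreated, the 4OHT arrays share their reference with the vehicle comparison, so the values are given beside those above and are not independent of them. Of the 14 probes 6 were higher and 4 lower with 4OHT, against 42% and 18.7% of all probes (60.7% in all), and on the spike-in scale 0 were higher and 12 lower, against 0.0909% and 93.4%. Without the 3 arrays that stood apart 6 were higher and 4 lower, but Esrrb (−0.34, adjusted p = 0.0628) and the brighter Nanog probe (0.35, 0.0816) lost their calls while Prdm14 (−0.37, 0.0286) and the brighter Tfcp2l1 probe (0.84, 0.0051) gained one. The brighter Tfcp2l1 probe was lowest in its group on each array left out, so leaving these out narrowed its spread. Sox2 was at 5.98% of untreated (−4.06 ± 0.12), Tbx3 at 21.2% (−2.24 ± 0.13) and Zfp42 at 52.7% (−0.92 ± 0.15), and the spike-in differences were −5.65, −3.82 and −2.51. Esrrb was lower than untreated with 4OHT (−0.33 ± 0.09, adjusted p = 0.0177), whereas relative to the percentile it was higher with vehicle, and this call was lost without 4OHT replicate 1 (0.0507) or 2 (0.0505), with no filter on dim probes (0.0504) and with median scaling (−0.18, adjusted p = 0.567), while the spike-in difference was −1.91. Nr0b1 and Prdm14 differed by −0.22 ± 0.12 and −0.24 ± 0.12 and did not pass (adjusted p = 0.148 and 0.111). Without untreated replicate 2 Prdm14 passed (−0.36, adjusted p = 0.0124).

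Pou5f1 was higher with 4OHT than untreated by 0.91 ± 0.12 relative to the percentile (adjusted p = 0.000618) and lower on the spike-in scale (−0.67 ± 0.20, adjusted p = 0.00899), and the call was lost by quantile normalization and cyclic loess (0.07 by each, adjusted p = 0.569 and 0.607). The brighter Nanog probe was higher by 0.46 ± 0.11 (adjusted p = 0.0094), but it was lower by quantile normalization, cyclic loess, no scaling and the spike-in scale (−1.12 ± 0.22 on the last), and the dimmer probe was higher by 2.04 ± 0.14 but did not pass on the spike-in scale (0.45 ± 0.23, adjusted p = 0.0841). The dimmer Tfcp2l1 probe exceeded untreated by 1.50 ± 0.40 (adjusted p = 0.0141) and the brighter one by 0.78 ± 0.33 (adjusted p = 0.0793), and the pair differed (−0.72 ± 0.12, adjusted p = 0.00615). The call of the dimmer probe was lost by quantile normalization (1.0, adjusted p = 0.0725), cyclic loess (0.88, 0.113), no scaling (0.44, 0.329) and the spike-in scale (−0.088, 0.808). The brighter one passed without 4OHT replicate 1 (1.08, adjusted p = 0.0211), with a trended prior (0.044) and with median scaling (0.93, 0.0413), and it was lower on the spike-in scale (−0.81). Sall4 exceeded untreated by 0.18 ± 0.08 (adjusted p = 0.102), 0.62 ± 0.10 (0.00154) and 0.59 ± 0.10 (0.0021) on its 3 probes, all of which were lower on the spike-in scale and without scaling, and the first probe differed from the second (−0.44 ± 0.13, adjusted p = 0.0415).

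The members' profiles over the 8 arrays were set against those of 13187 other genes, each centred on its own mean, by the root mean square difference. All profiles share these arrays, and the likeness is a description. The 2 nearest genes were Macroh2a1 and Jpt2 for Pou5f1 (0.04 each), D7Ertd143e and Dnajb1 for Sox2 (0.09 each), Cntrob and Habp4 for Nanog (0.06 and 0.08) and Cenpb and Mrps7 for Esrrb (0.04 and 0.05). They were Uck2 and Rsrp1 for Nr0b1 (0.08 and 0.09), Zfp869 and Zfp941 for Tbx3 (0.12 each), Ate1 and Ncapg2 for Prdm14 (0.06 and 0.07), Dok1 and Xkr5 for Zfp42 (0.08 and 0.09) and Pnn and Ythdc1 for Sall4 (0.04 each). Pearson r over the 8 arrays was 0.94 or more for these pairs. Bdh2 and Scube2 were nearest to Tfcp2l1 (0.08 and 0.11), and in both the lowest array of each group was again one of the 3 that stood apart. Among the members themselves Esrrb and Nr0b1 were closest, with a root mean square difference of 0.10 and a Pearson r of 0.93 over the 8 arrays.

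Around the core factors, the genes of 4 network lists were read on their brightest probes, beside the shares called among all probes given above. Of 16 genes of the LIF and STAT3 pathway and the naive state, 10 were lower and 2 higher with vehicle than untreated, with a median of −0.91. Socs3, the feedback inhibitor of STAT3 signalling, fell by 4.82 ± 0.21 (limma adjusted p = 1.9e-05) and Gbx2, a STAT3 target, by 4.39 ± 0.23 (adjusted p = 3.5e-05). Tcl1, a coactivator of AKT, was higher by 0.86 ± 0.15 and Stat3 itself by 0.55 ± 0.15, but both were lower by spike-in scaling (−0.42 and −0.73) and without scaling (−0.23 and −0.54). The list median was below that of all probes under each of the 6 other scalings and background corrections run. Of 14 primed and exit genes 13 were tested, 7 were lower and 2 higher, with a median of −1.27. Foxd3 (−4.73 ± 0.20) and Nodal (−4.51 ± 0.12), a transcription factor and a secreted signal of the exit from naive pluripotency, fell furthest. Dnmt3b (0.78 ± 0.24, limma adjusted p = 0.0251) and Tcf7l1 (0.69 ± 0.13, 0.00349) were higher, but lower on the spike-in scale (−0.50 and −0.59). Of this list 1 gene was higher and 7 lower by quantile normalization, 0 and 7 by cyclic loess, and 0 and 11 on the spike-in scale.

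Among 24 genes whose proteins bind NANOG or OCT4, 15 were higher and 4 lower with vehicle, with a median of 0.42 (0.39 for all probes), but 6 were higher and 8 lower by quantile normalization, 1 and 8 by cyclic loess, and 0 and 17 on the spike-in scale. Hdac1, a histone deacetylase, was higher by 1.16 ± 0.16 and Trim28, a corepressor, by 0.98 ± 0.12, and on the spike-in scale they were at −0.12 and −0.30. Trim28 was also lower without scaling (−0.11), by quantile normalization (−0.04) and by cyclic loess (−0.03). Zfp143, a zinc finger activator, fell by 1.27 ± 0.17 and Arid1a, a subunit of the BAF remodelling complex, by 0.94 ± 0.17. Of 24 other genes of the pluripotent state 13 were higher and 4 lower (median 0.56), but 2 and 8 by quantile normalization, 2 and 9 by cyclic loess, and 0 and 14 on the spike-in scale. Zfp296 (−5.24 ± 0.11) and Lefty1 (−4.07 ± 0.44) fell furthest, while Dppa5a was higher by 1.15 ± 0.12 and Spp1 by 0.97 ± 0.09 (−0.13 and −0.31 on the spike-in scale, and −0.12 for Spp1 without scaling). No gene of the 4 lists was higher with vehicle than untreated on the spike-in scale. The lists share these turns with the whole array. Of all 33013 probes 13715 were called higher in the main fit, 8925 by quantile normalization and 5158 by cyclic loess.

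**Figure D5:**
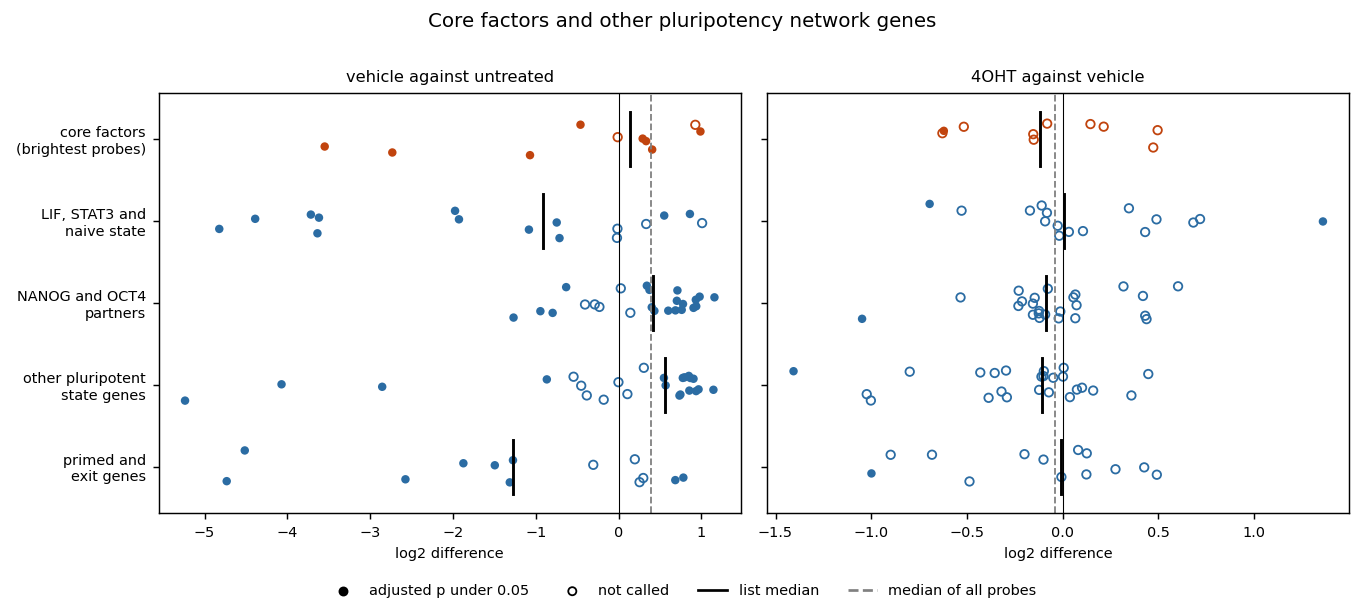
Log2 difference relative to the array 75th percentile for the brightest probe of each core factor and of each gene of 4 network lists, for vehicle against untreated (left) and 4OHT against vehicle (right). Filled points passed an adjusted p under 0.05, the black bar is the list median and the dashed line the median of all probes, and the axes differ between the panels.

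Between 4OHT and vehicle 5 of the 77 list genes tested were called, against 3.33% of all probes (0.933% higher and 2.4% lower). The lists were chosen with earlier results of these data known. Fgf4, the ligand whose enhancer OCT4 and SOX2 bind together, was higher with 4OHT, with means of 4.40 ± 0.05 (SD, n = 3) with 4OHT and 3.04 ± 0.18 (SD, n = 2) with vehicle (1.36 ± 0.14, limma adjusted p = 0.0088; 1.06 on the spike-in scale, adjusted p = 0.0382). Its untreated mean was 6.68 ± 0.18 (SD, n = 3), so with 4OHT it still stood below untreated. Without vehicle replicate 1 the difference was 1.24 (adjusted p = 0.053). Mycn, a growth regulator, differed by −1.41 ± 0.18 (adjusted p = 0.016), Arid1a by −1.05 ± 0.17 (0.0303), Sox4, an SRY-related factor, by −1.0 ± 0.15 (0.0232) and Klf5, a Krüppel-like factor of the naive state, by −0.69 ± 0.11 (0.0278). All 4 were lower on the spike-in scale too (−1.71, −1.35, −1.30 and −1.0). With scaling to the array median the 4 genes kept their direction and lost their calls (adjusted p = 0.0711, 0.177, 0.243 and 0.496), and without scaling the calls of all 5 genes were lost (0.0643 for Fgf4 and 0.0586, 0.137, 0.108 and 0.386 for the others). Klf5 was also lost by quantile normalization (0.0678), and limma called no probe between 4OHT and vehicle without the 3 arrays that stood apart. Each of these calls was lost without 1 or more single arrays, among them vehicle replicate 1 in all 4 genes (adjusted p = 0.0546 for Mycn, 0.11 for Arid1a, 0.118 for Sox4 and 0.134 for Klf5). No list gene was called higher with 4OHT besides Fgf4.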

How the data were processed

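RNA of 8 mouse embryonic stem cell cultures was measured on single-colour Agilent arrays. Spot intensity is the authors' deposited scanner output, background-subtracted by Feature Extraction 11.0.1.1 per the file headers. The labels name Cy5, but the files hold the green channel. Outlier spots were left out, and the processed signals of the other spots of a probe were averaged before the log2 was taken. The log2 of the array's 75th percentile over the non-control probes was then subtracted. A probe was kept where it was well above background throughout 1 or more groups (33013 probes). The 3 groups were fitted with limma 3.58.1 in R 4.3.3 (5 residual degrees of freedom), with Benjamini-Hochberg adjustment over all kept probes and a threshold of 0.05. Spike-in levels used 8 of 10 control probes. The labels of each culture's origin give no more than a replicate number, so p-values measure the spread between these samples. The number of arrays limits the precision.

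Genes were matched by the array's accession. The 10 genes, the network and marker lists and the rule for named genes (up to 2 called genes with the largest rise and 2 with the largest fall per list and comparison, and the 2 genes nearest to each member) were chosen with earlier results of these data known. Alternatives covered background correction, scaling, filters, the eBayes prior, the replicate number as a block and leaving arrays out. The fits were tested on simulated data.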

Additional observations from a re-analysis of the deposited data

How the results depend on the processing

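In direction, Sox2, Tbx3, Zfp42 and Prdm14 were lower and the dimmer Nanog probe was higher with vehicle than untreated under every scaling run, whereas other directions turned with the scaling. Prdm14 lost its call with median scaling (−0.42, limma adjusted p = 0.276), with no filter (0.0524) and within these groups alone (0.0584). The dimmer Nanog probe lost its call without scaling (0.52, adjusted p = 0.127) and by spike-ins (0.33, 0.264). For 4OHT against untreated, the brighter Nanog probe was −0.029 by quantile normalization, −0.59 without scaling, −1.12 by spike-ins and −0.12 by cyclic loess. In the same order the brightest Sall4 probe was −0.34, −0.87, −1.40 and −0.43. Without scaling and by spike-ins Pou5f1 was −0.14 and −0.67 and the other Sall4 probes were −0.43 and −0.96, and −0.46 and −0.99. The Tfcp2l1 probes were −0.81 and −0.088 by spike-ins. For vehicle against untreated, Esrrb was −0.64 by quantile normalization, −0.80 without scaling, −0.99 by spike-ins and −0.61 by cyclic loess, Nr0b1 was −0.22, −0.68, −0.87 and −0.29, and the brightest Sall4 probe was −0.20, −0.76, −0.95 and −0.30, and −0.040 by normexp. Without scaling and by spike-ins Pou5f1 was −0.10 and −0.29, and the other Sall4 probes were −0.44 and −0.63, and −0.65 and −0.84. The scalings differ by construction in what they hold constant between arrays.

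For vehicle against untreated, the probes called higher (7) numbered 3 by quantile normalization or median scaling, 0 without scaling or by spike-ins, 2 by cyclic loess and 4 with no filter, with 1 probe a gene or within these groups alone. The probes called lower (4) numbered 8 without scaling, 10 by spike-ins and 7 by cyclic loess. Among all probes 13715 were higher in the main fit, 8925 by quantile normalization, 8546 by median scaling and 5158 by cyclic loess. Without scaling 37 of all probes were higher and 15206 lower, and by spike-ins 32 and 21867, against 5326 lower in the main fit. For 4OHT against vehicle, 1 member probe was higher by normexp or a trended prior. The member probes called lower (1) numbered 2 by normexp or with probes well above background on all arrays and 3 with a trended prior. They numbered 0 by median scaling, without scaling, with no filter or within these groups alone. Among all probes 308 were higher in the main fit and 471 with a trended prior. Of all probes 792 were lower in the main fit, 155 by median scaling, 80 without scaling and 35 within these groups alone. For 4OHT against untreated, the member probes called higher (6) numbered 3 by quantile normalization or cyclic loess, 1 without scaling, 0 by spike-ins and 2 with 1 probe a gene. Those called lower (4) numbered 7 by quantile normalization or cyclic loess, 8 without scaling and 12 by spike-ins. Among all probes 13873 were higher in the main fit, 6607 by cyclic loess, 100 without scaling and 30 by spike-ins. Of all probes 6174 were lower in the main fit, 17959 without scaling and 30827 by spike-ins. The probe pairs called for vehicle against untreated or 4OHT against vehicle (882) numbered 1730 by normexp and 1504 by quantile normalization. The cause of the other changes was not tested.

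With single arrays left out, 4 to 7 probes were higher and 3 to 4 lower for vehicle against untreated, 0 were higher and 0 lower for 4OHT against vehicle, 6 to 7 were higher and 3 to 5 lower for 4OHT against untreated, and 543 to 781 pairs were called. A lone vehicle array was then assumed to vary like the other groups. Same-numbered arrays of different groups correlated at −0.21 to 0.38 in their deviations. The deviations of the vehicle arrays mirror each other by construction, because that group has so few arrays. These correlations therefore cannot decide whether the numbers pair the samples. With the replicate block, 0 probes were lower for 4OHT against vehicle (Esrrb −0.61, adjusted p = 0.126) and 563 pairs were called. For vehicle against untreated the block gave Esrrb 0.28 (0.105), Prdm14 −0.44 (0.0574), the brightest Sall4 probe 0.34 (0.0518) and the dimmer Tfcp2l1 probe 1.33 (0.0411), and it changed no other call of a member. All 14 member probes were well above background on all arrays, so dim signal did not bound any value.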
